A study of Mus musculus with 6 samples.

Results

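The comparison set hippocampus from mice given postnatal immune activation together with interleukin-27, labelled PIA+IL-27, against hippocampus from Control mice. It used 4 of the 6 RNA sequencing libraries of the study, 2 Control and 2 PIA+IL-27, chosen by their group labels, and asked which genes stood off the Control level after IL-27. The other 2 libraries, labelled PIA, came from mice given immune activation alone and are set beside each result. The series' design text describes the activating agent as lipopolysaccharide (LPS) and the interleukin as recombinant IL-27. Strain, sex, age, dose, route, timing and the number of animals behind each library, and any vehicle given to Control mice, are not stated in the labels used here. All groups were the same tissue, and no genetic change is named for any of them.

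LPS, a component of the outer membrane of Gram-negative bacteria, binds Toll-like receptor 4 and drives cytokine, chemokine and type I interferon production by microglia and other cells. IL-27 is a cytokine made of the subunits Il27 (p28) and Ebi3, signals through Il27ra and Il6st to JAK kinases and STAT transcription factors, and is known both to induce interferon-stimulated genes and to limit inflammation, in part through Socs3. The choroid plexus, which secretes cerebrospinal fluid, and the meninges lie close to the hippocampus.

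The deposited table held 3733 genes. In the authors' deposited table every one of them changed by 1 or more on the log2 scale, up or down, with a Q value no larger than 0.05, in 1 or more of 3 comparisons, so the genes tested here were selected on these same libraries. For PIA+IL-27 against Control the authors' deposited table had 815 such genes, 495 higher and 320 lower. Values below are the deposited normalized read counts, which are read counts divided by 1 factor per library, with factors between 0.917 and 1.05. They are given in the order library 1, then library 2, and they do not correct for gene length, so they compare libraries and not genes. The listed genes held 641672 to 1593441 reads per library and 2.14 to 5.61% of its length-scaled transcript abundance (TPM), out of a whole-library depth estimated at 14622472 to 15863269.

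The 2 libraries of a group differed widely. Between the Control libraries, 2310 of 3216 tested genes were over 2-fold apart (with 1 added to each value), and 1964 of them were higher in Control 2. Between the PIA+IL-27 libraries 923 genes were over 2-fold apart, 527 of them higher in PIA+IL-27 1. Y-linked genes had summed values of 2.94 and 9.52 in Control 1 and 2, of 541 and 594 in PIA 1 and 2, and of 1476 and 6.8 in PIA+IL-27 1 and 2. Choroid plexus genes stood high in Control 2, neutrophil and acute-phase genes in Control 1, and the sum of cortical neuron genes in PIA+IL-27 1, with values given beside the results they touch. The part of these differences in any result was not tested.

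With edgeR's quasi-likelihood test over all 6 libraries and Benjamini-Hochberg adjustment, 10 of 3216 genes (0.311%) differed between PIA+IL-27 and Control at an adjusted p under 0.05. Of these, 6 were higher (0.187%), namely the Y-linked genes Ddx3y, Kdm5d, Eif2s3y and Uty together with Entpd4 and Trpa1, and 4 were lower (0.124%), namely Ttr, Tmem72, Clic6 and Gdf1. In 4 of the 10, Tmem72, Clic6, Gdf1 and Uty, the libraries of the 2 groups did not overlap, and in the other 6 they did. For Uty this rested on values at the floor, 0.971 in PIA+IL-27 2 against 0.952 in Control 2. An unadjusted p under 0.05 was reached by 92 genes, 53 higher and 39 lower. The biological coefficient of variation was 0.597, and edgeR's estimate gave every gene the same spread for its level, with no weight on the gene's own scatter. The labels do not say whether the 2 libraries of a group came from separate mice, so p-values measure only the spread between these libraries. No gene passed edgeR's test when Control 1 or Control 2 was left out (109 and 1193 genes had an unadjusted p under 0.05), or with TMM scaling over the listed genes (115 genes). Only 2 passed, Ttr and Entpd4, without PIA+IL-27 1.

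**Figure D1:**
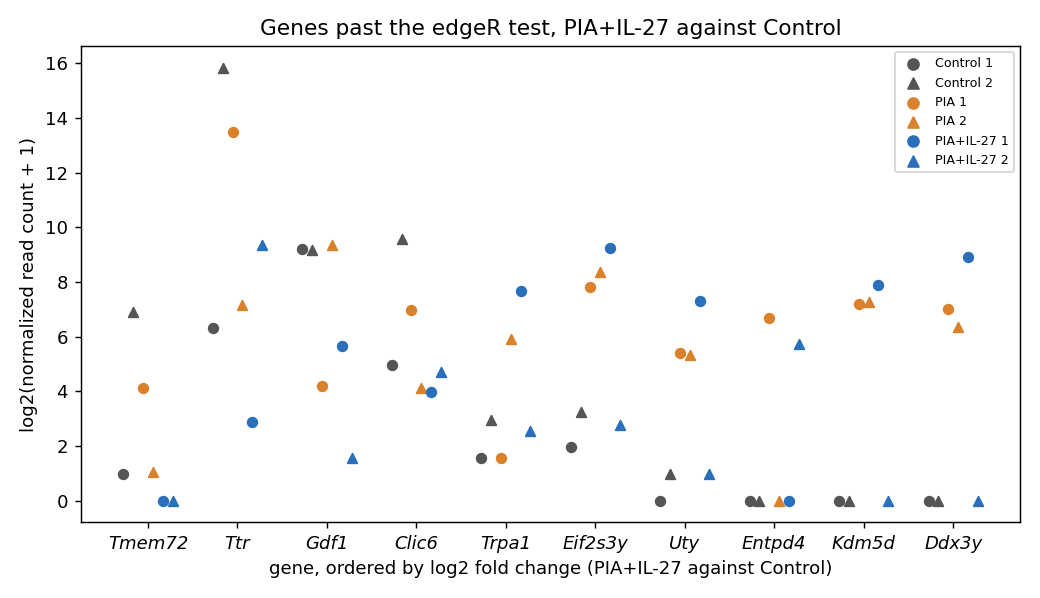
Normalized read count, as log2 of the value plus 1, of the 10 genes past the test in each of the 6 libraries (circles library 1, triangles library 2). The PIA+IL-27 libraries sit far apart for Ddx3y, Kdm5d, Eif2s3y and Uty, and Control 2 stands alone at the top for Ttr, Clic6 and Tmem72.

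Counted without a test, both PIA+IL-27 libraries lay above both Control libraries for 747 genes (23.2%) and below both for 190 genes (5.91%). The fold changes were centred above 0: the median log2 fold change of all tested genes was 0.55, and 2356 genes (73.3%) were above 0. Among the 747 higher genes, Control 2 exceeded Control 1 in 671 (89.8%), against 78.4% of all tested genes. With TMM scaling, which moved the median of all genes to -0.02, the counts were 487 higher and 497 lower. Fold changes here are therefore read against 0.55 and not against 0. The median of all tested genes was 0.08 without Control 1, 1.36 without Control 2, 0.39 without PIA+IL-27 1 and 0.63 without PIA+IL-27 2.

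The PIA libraries placed these genes in 3 ways. Of the 747 higher genes, both PIA libraries were also above both Controls for 89 (11.9%), overlapped the Controls for 584 (78.2%) and lay below both for 74 (9.91%). Of the 190 lower genes, both PIA libraries were also below both Controls for 50 (26.3%), overlapped for 92 (48.4%) and lay above both for 48 (25.3%). Genes off the Control range on the same side in both treated groups were thus 2.77% of tested genes on the higher side and 1.55% on the lower side. The 2 treated groups are set against the same Control libraries, so these counts are not independent of each other.

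Choroid plexus genes were low in both PIA+IL-27 libraries and high in Control 2. Of 26 tested genes of the choroid plexus epithelium, 3 fell and 23 did not pass the test, 25 had a fold change below 0, and 6 (23.1%, against 5.91% of all tested genes) were below both Controls in both PIA+IL-27 libraries. The list's median log2 fold change was -2.08, against 0.55 for all genes. For all 26 genes Control 2 exceeded Control 1, with a median log2 difference of 3.10. Without Control 2 the list's median was 0.12, against 1.36 for all genes. Its summed values were 1983 and 70031 in Control, 14836 and 2626 with PIA alone, and 2658 and 2481 with PIA+IL-27. In bulk tissue, fewer cells of a type and less RNA per cell cannot be told apart.

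Ttr, which encodes transthyretin, the thyroid hormone carrier secreted by the choroid plexus, had values of 78.4 and 58611 in Control, 11302 and 141 with PIA alone, and 6.26 and 649 with PIA+IL-27. The groups overlapped, since PIA+IL-27 2 lay above Control 1. The log2 fold change of -6.48 (SE 0.933, edgeR adjusted p = 1.24e-08) was 2.06 without Control 2. With all libraries kept, Ttr did not pass with TMM or median-of-ratios scaling, with DESeq2 or with the robust dispersion estimate. It did pass with limma and without the filter on low counts. Tmem72, a transmembrane protein gene of the choroid plexus, had 0.979 and 119 in Control, 16.3 and 1.09 with PIA alone, and no reads in either PIA+IL-27 library. Its group level was at least 39.8-fold lower in PIA+IL-27, taking 3 reads over the group as the floor (adjusted p = 0.0012). Clic6, a chloride intracellular channel family gene, had 30.4 and 764 in Control, 123 and 16.4 with PIA alone, and 14.6 and 25.2 with PIA+IL-27 (log2 fold change -4.31, SE 1.05, adjusted p = 0.0155). For both genes the PIA+IL-27 libraries were below both Controls, but Control 1 lay closer to them than to Control 2.

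Other choroid plexus genes did not pass the test. Kcne2, a potassium channel subunit of the epithelium's apical membrane, had 0 and 241 in Control, 15.4 and 6.55 with PIA alone, and 6.26 and 5.83 with PIA+IL-27 (adjusted p = 0.0727). Kl, which encodes the co-receptor klotho, had 87.2 and 246 in Control, 139 and 51.3 with PIA alone, and 36.5 and 81.6 with PIA+IL-27, so that PIA+IL-27 2 lay just below Control 1 (adjusted p = 0.835). Ace, angiotensin-converting enzyme, had 489 and 784 in Control, 686 and 678 with PIA alone, and 367 and 276 with PIA+IL-27, so that the PIA libraries lay within the Control range and the PIA+IL-27 libraries below it. Kl and Ace are named after their values were seen.

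Gdf1 was lower in both PIA+IL-27 libraries. Its values were 584 and 568 in Control, 17.3 and 656 with PIA alone, and 49.0 and 1.94 with PIA+IL-27 (log2 fold change -4.50, SE 1.01, adjusted p = 0.00374). Gdf1, a TGF-beta family gene, shares transcripts with Cers1, a ceramide synthase gene, so reads of the 2 cannot be assigned with certainty. Cers1 had 708 and 405 in Control, 1077 and 1291 with PIA alone, and 981 and 1059 with PIA+IL-27. The sum of both genes was 1292 and 972 in Control, 1094 and 1946 with PIA alone, and 1030 and 1061 with PIA+IL-27, so in the sum the 2 groups overlapped.

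**Figure D2:**
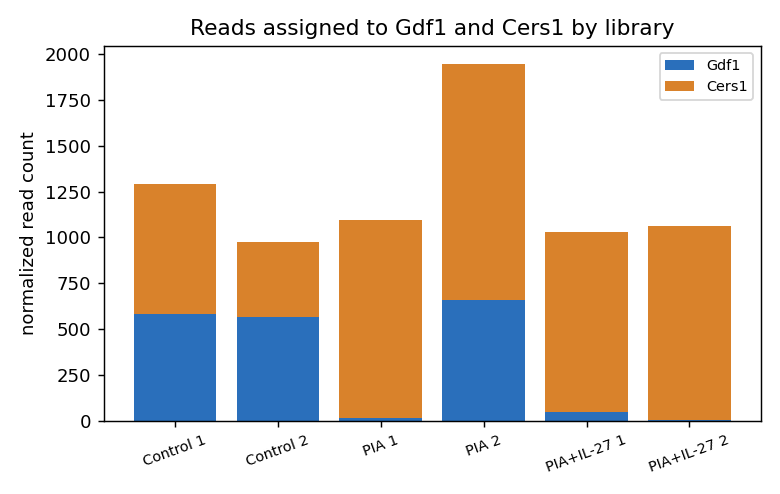
Stacked normalized read counts of Gdf1 and Cers1 in each library. The Gdf1 share is small in PIA 1 and both PIA+IL-27 libraries, while the summed bars of Control and PIA+IL-27 lie between 972 and 1292.

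The 6 genes that rose did so through 1 library each. Ddx3y, a Y-linked RNA helicase gene, had no reads in either Control library, 129 and 79.6 with PIA alone, and 477 and 0 with PIA+IL-27, at least 164-fold higher as a group (adjusted p = 4.88e-07). Kdm5d, a Y-linked histone demethylase gene, had none in Control, 145 and 151 with PIA alone, and 234 and 0 with PIA+IL-27, at least 80.6-fold higher (adjusted p = 1.1e-05). Eif2s3y, a Y-linked translation initiation factor gene, had 2.94 and 8.57 in Control, 226 and 324 with PIA alone, and 609 and 5.83 with PIA+IL-27 (adjusted p = 0.000394). Uty, a Y-linked demethylase family gene, had 0 and 0.952 in Control, 41.3 and 39.3 with PIA alone, and 157 and 0.971 with PIA+IL-27 (adjusted p = 0.0012). All 4 were thus high in 3 libraries, both PIA libraries and PIA+IL-27 1, and at or near 0 in the other 3. The labels give no sex. The other PIA+IL-27 library carried the same treatment label as PIA+IL-27 1. It had no reads of Ddx3y or Kdm5d, as in both Control libraries, against 477 and 234 in PIA+IL-27 1. Whether the libraries differed in sex was not tested. For genes outside the Y chromosome, a difference of sex and one of treatment within PIA+IL-27 1 cannot be told apart.

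Entpd4, a Golgi nucleotidase gene with a near-identical neighbouring copy, had no reads in Control, 101 and 0 with PIA alone, and 0 and 51.5 with PIA+IL-27, at least 17.8-fold higher as a group (adjusted p = 0.0129). The reads that separate it from its copy are uncertain. Trpa1, an irritant-sensing cation channel gene, had 1.96 and 6.67 in Control, 1.92 and 58.9 with PIA alone, and 200 and 4.85 with PIA+IL-27 (adjusted p = 0.049). Its second PIA+IL-27 library lay within the Control range, and without PIA+IL-27 1 its log2 fold change was 0.16.

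**Figure D3:**
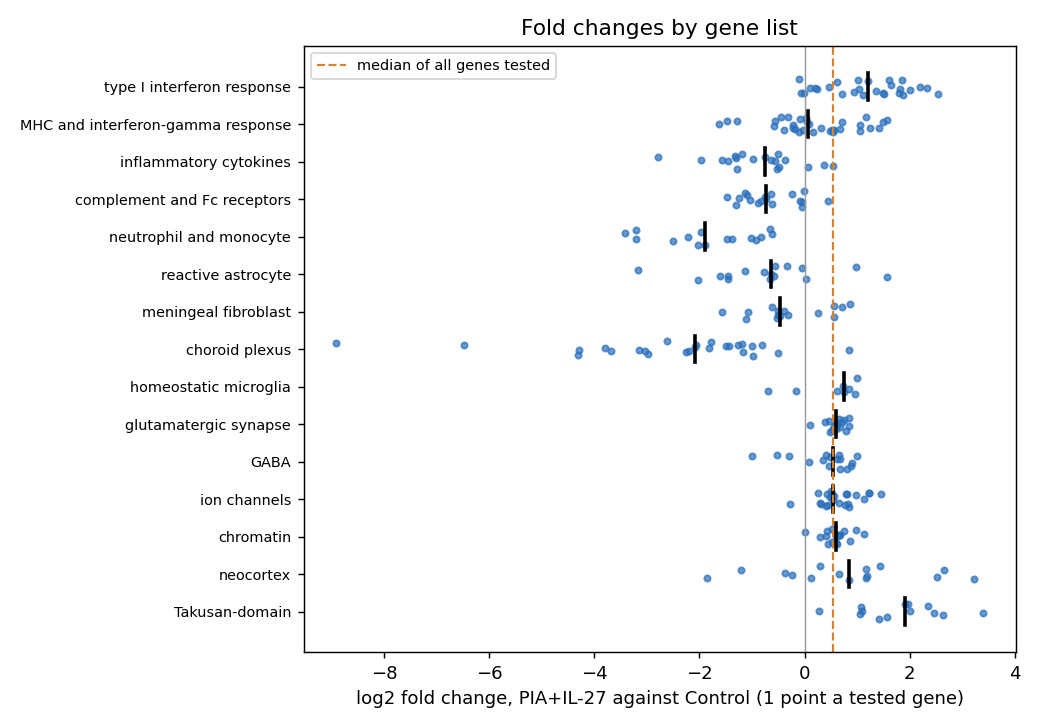
Log2 fold change of each tested gene (points) in 15 gene lists, with the list median (black bar) and the median of all tested genes (dashed line, 0.55). The type I interferon and Takusan-domain medians lie to the right of the dashed line, the choroid plexus and neutrophil medians furthest to the left of 0.

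Type I interferon response genes stood above the Control level mainly in PIA+IL-27 2. Of 27 tested genes none passed the test (smallest adjusted p 0.835), 24 had a fold change above 0 and 3 below, and the median was 1.21 against 0.55 for all genes. With TMM scaling 17 were above 0 and 10 below, with a median of 0.34 against -0.02. In 9 genes (33.3%, against 23.2% of all tested genes) both PIA+IL-27 libraries lay above both Controls: Ifit2, Ifit3, Ifi204, Ifih1, Ddx58, Trim30a, Parp14, Slfn5 and Sp100. TMM scaling left 4 of these separated, Ifit2, Ifi204, Ifih1 and Slfn5. With that scaling 4 of 27 was close to the share of all tested genes above both Controls, 487 of 3216. All 27 genes were higher in PIA+IL-27 2 than in PIA+IL-27 1, by a median of 1.91 on the log2 scale. Without PIA+IL-27 2 the list's median was -0.36, against 0.63 for all genes. PIA+IL-27 2 alone lay above both Controls in 24 genes and PIA+IL-27 1 in 9. The share of all tested genes above both Controls in a single library was not counted. Summed values were 2053 and 816 in Control, 4280 and 2184 with PIA alone, and 1329 and 4550 with PIA+IL-27.

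Promoter sequences are shown for 3 of the 9 separated genes, because the DNA element through which interferon acts on many of these genes can be seen in them. That element, the interferon-stimulated response element, has the core GAAANNGAAA, searched on both strands (TTTCNNTTTC on the other), and capitals mark each match. The sequences run 5′ to 3′ on the gene's strand from 250 bases before to 50 after the RefSeq start of the gene, in build GRCm38.p6.
Ifit3, chr19:34583279-34583578, + strand: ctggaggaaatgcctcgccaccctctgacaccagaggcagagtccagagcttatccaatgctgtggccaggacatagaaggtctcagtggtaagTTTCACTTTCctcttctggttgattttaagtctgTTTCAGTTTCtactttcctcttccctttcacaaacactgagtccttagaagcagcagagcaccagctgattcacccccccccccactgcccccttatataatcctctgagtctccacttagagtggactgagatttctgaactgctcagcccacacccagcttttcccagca
Slfn5, chr11:82951852-82952151, + strand: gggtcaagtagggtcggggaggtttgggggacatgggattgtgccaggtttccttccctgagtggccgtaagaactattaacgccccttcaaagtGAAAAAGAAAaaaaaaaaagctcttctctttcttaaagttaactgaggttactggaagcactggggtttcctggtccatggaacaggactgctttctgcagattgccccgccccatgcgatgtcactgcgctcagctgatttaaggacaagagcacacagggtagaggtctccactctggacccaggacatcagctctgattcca
Ifih1, chr2:62646206-62646505, − strand: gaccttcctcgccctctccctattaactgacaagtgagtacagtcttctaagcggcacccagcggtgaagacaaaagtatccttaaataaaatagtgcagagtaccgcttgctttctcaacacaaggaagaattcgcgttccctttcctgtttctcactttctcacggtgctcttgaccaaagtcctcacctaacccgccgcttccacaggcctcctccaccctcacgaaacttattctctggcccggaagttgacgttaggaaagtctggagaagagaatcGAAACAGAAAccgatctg
The Ifit3 promoter held 2 matches, 156 and 122 bases upstream of the start, the Slfn5 promoter 1 at 155 bases upstream, and the Ifih1 promoter 1 at 32 bases downstream. Of the 28 listed interferon genes 21 had a RefSeq promoter entry, and 13 of these (61.9%) held the core. Among all 32851 promoter entries of that length 1131 (3.44%) held it. The first share counts genes with a match in any entry and the second counts entries, so their units differ. The genes were listed as interferon response genes, so the 2 shares are no test. Of the 9 separated genes 7 had an entry and 5 held it. A match describes the letters in this window and nothing about binding in these libraries.

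Ifit3, an antiviral tetratricopeptide repeat protein gene, had values of 45.1 and 16.2 in Control, 206 and 70.9 with PIA alone, and 51.1 and 253 with PIA+IL-27 (log2 fold change 2.33, SE 0.993, adjusted p = 0.835). Its PIA+IL-27 1 value lay just above Control 1, and its groups overlapped with TMM scaling. Slfn5, a Schlafen family gene, had 22.5 and 39.0 in Control, 33.6 and 14.2 with PIA alone, and 70.9 and 123 with PIA+IL-27 (log2 fold change 1.65, SE 1.02). Here both PIA+IL-27 libraries stood above the other 4. Ifih1, which encodes the cytosolic RNA sensor MDA5, had 8.82 and 23.8 in Control, 24.0 and 14.2 with PIA alone, and 37.5 and 82.5 with PIA+IL-27 (log2 fold change 1.87, SE 1.08). It followed the order of Slfn5, with PIA libraries at the Control level and PIA+IL-27 libraries above it.

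In 3 of the 9 genes, Ifit3, Ifi204 and Parp14, both PIA libraries were above both Controls as well. Ifi204, a DNA sensor gene of the interferon-inducible p200 family, had 4.9 and 6.67 in Control, 18.3 and 20.7 with PIA alone, and 20.9 and 26.2 with PIA+IL-27. All 4 treated libraries lay between 18.3 and 26.2, on few reads. Parp14, a mono-ADP-ribosyltransferase gene, had 39.2 and 32.4 in Control, 106 and 63.3 with PIA alone, and 73.0 and 146 with PIA+IL-27. Ifit2, another tetratricopeptide repeat gene, had 35.3 and 131 in Control, 64.4 and 51.3 with PIA alone, and 201 and 224 with PIA+IL-27. Slfn5, Ifih1, Ifi204, Parp14 and Ifit2 are named after their values were seen.

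The interferon genes with the smallest p besides Ifit3 all rested on PIA+IL-27 2. Ifit1 had 8.82 and 5.71 in Control, 26.9 and 5.46 with PIA alone, and 8.34 and 76.7 with PIA+IL-27. Ifit3b, a close relative of Ifit3, had 15.7 and 5.71 in Control, 52.8 and 20.7 with PIA alone, and 11.5 and 83.5 with PIA+IL-27. Usp18, which encodes the ISG15 protease that restrains interferon signalling, had 88.2 and 4.76 in Control, 144 and 66.6 with PIA alone, and 17.7 and 308 with PIA+IL-27. In each, PIA+IL-27 1 lay within the Control range and PIA+IL-27 2 above all 5 other libraries.

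**Figure D4:**
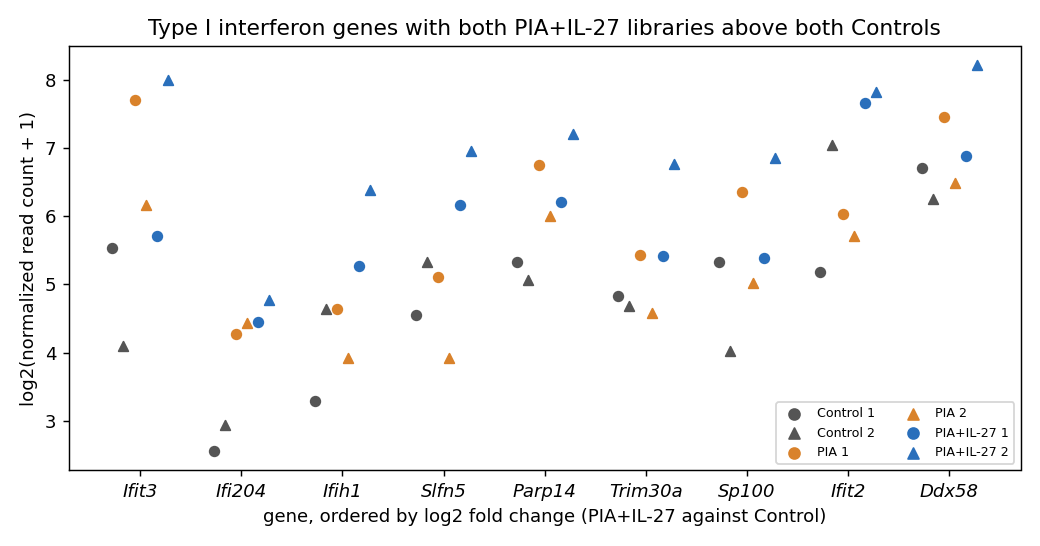
Normalized read count, as log2 of the value plus 1, of the 9 type I interferon genes whose PIA+IL-27 libraries both lie above both Controls (circles library 1, triangles library 2). PIA+IL-27 2 is the highest of the PIA+IL-27 libraries in all 9, and PIA 1 and 2 lie within the Control range for Ifit2.

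Antigen presentation and interferon-gamma response genes overlapped the Control range in PIA+IL-27 in 29 of 32 cases with the deposited scaling. Of 32 tested genes none passed the test, 18 were above 0 and 14 below, and the median log2 fold change was 0.07 against 0.55 for all genes. With TMM scaling 6 were above 0 and 26 below, with a median of -1.01 against -0.02 for all genes. Both PIA+IL-27 libraries were above both Controls in 3 genes (9.38%, against 23.2% of all tested genes), B2m, Gbp7 and Iigp1. Both PIA libraries were above both Controls in 30 of the 32, against 15.3% of all tested genes. Summed values were 8405 and 3225 in Control, 15428 and 17731 with PIA alone, and 5999 and 6941 with PIA+IL-27. Control 1 was higher than Control 2 in 31 of the 32, and without Control 1 the median was 1.03, against 0.08 for all genes.

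H2-Ab1, a chain of an MHC class II molecule, had 88.2 and 22.9 in Control, 126 and 211 with PIA alone, and 26.1 and 9.71 with PIA+IL-27 (log2 fold change -1.63, SE 0.997, adjusted p = 0.835). PIA+IL-27 1 lay close to the lower Control and PIA+IL-27 2 below it. Iigp1, an interferon-inducible GTPase of cell-autonomous defence, stayed above the Controls, with 13.7 and 13.3 in Control, 75.9 and 106 with PIA alone, and 27.1 and 53.4 with PIA+IL-27, although the groups overlapped with TMM scaling. B2m, the invariant chain of MHC class I, had 592 and 415 in Control, 1366 and 1071 with PIA alone, and 976 and 636 with PIA+IL-27, and its log2 fold change of 0.68 became -0.30 with TMM scaling. Gbp7, a guanylate-binding protein gene, had 19.6 and 41.9 in Control, 25.9 and 49.1 with PIA alone, and 60.5 and 103 with PIA+IL-27.

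The GTPase genes with the smallest p after Iigp1 were separated by library. Irgm1 had 178 and 62.8 in Control, 544 and 504 with PIA alone, and 108 and 461 with PIA+IL-27. Tgtp2, which has a near-identical copy in Tgtp1, had 11.8 and 4.76 in Control, 74.0 and 149 with PIA alone, and 9.38 and 35 with PIA+IL-27. For both, PIA+IL-27 1 lay within the Control range and PIA+IL-27 2 above it. Without PIA+IL-27 2 the log2 fold change of Irgm1 was -0.15. B2m and Gbp7 are named after their values were seen.

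**Figure D5:**
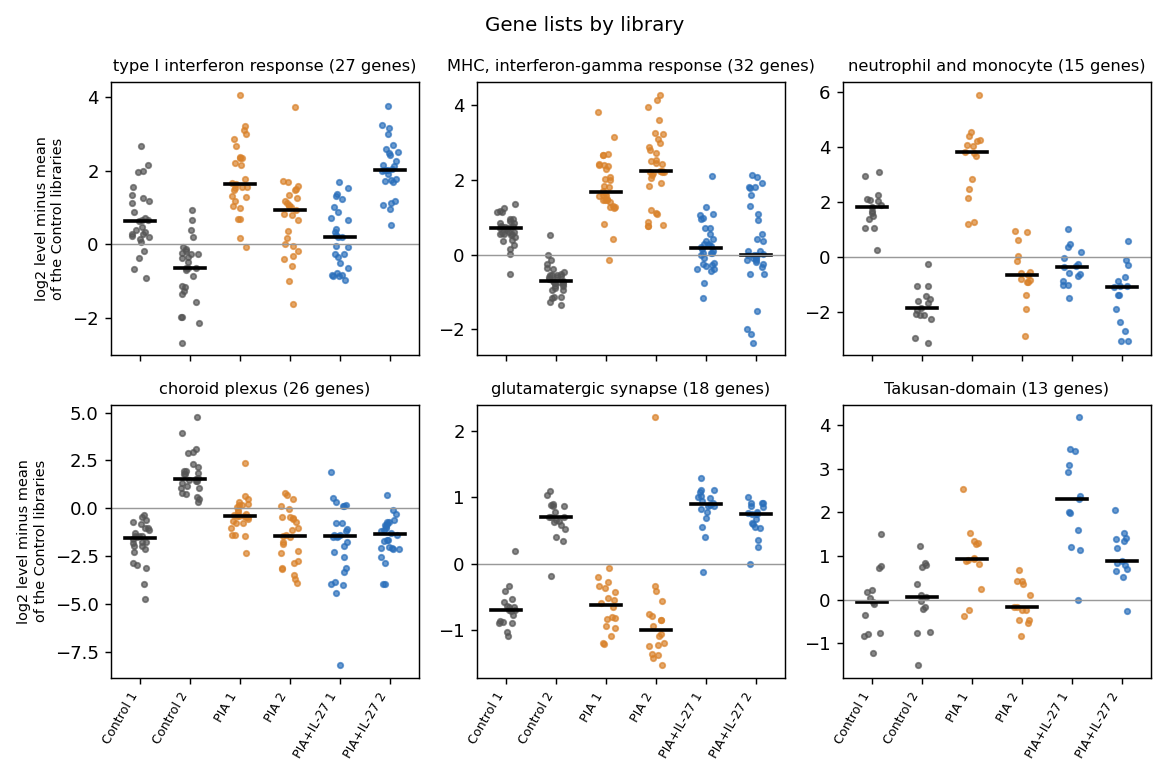
Log2 level of each tested gene minus its mean over the 2 Control libraries, by library, for 6 gene lists; black bars are medians. The type I interferon genes are higher in PIA+IL-27 2 than in PIA+IL-27 1, the choroid plexus genes are high in Control 2, and the glutamatergic genes separate Control 2 and both PIA+IL-27 libraries from Control 1 and both PIA libraries.

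The pathway of IL-27 itself held few listed genes. Of 25 genes of IL-27, its receptor, JAK and STAT signalling, 7 were in the table and 6 were tested, none passed, and the median was 0.51 against 0.55 for all genes. It was -0.40 with TMM scaling and 0.10 without PIA+IL-27 1, against -0.02 and 0.39 for all genes. Il27 was at or below 7.64 in every library and was not tested. Ebi3, the partner subunit, had 69.5 and 31.4 in Control, 136 and 100 with PIA alone, and 83.4 and 46.6 with PIA+IL-27. Its groups overlapped, and its log2 fold change of 0.36 was -0.72 with TMM scaling.

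Socs3, the feedback inhibitor of JAK and STAT signalling, had 180 and 79.0 in Control, 368 and 143 with PIA alone, and 54.2 and 63.1 with PIA+IL-27 (log2 fold change -1.14, SE 0.936, adjusted p = 0.835). The 2 libraries given IL-27 were both under the Control range. Jak2, a receptor-associated kinase gene, had 176 and 644 in Control, 330 and 241 with PIA alone, and 943 and 674 with PIA+IL-27.

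Inflammatory, complement and neutrophil genes were below 0 in their fold change as lists, and Control 1 was mostly the higher Control. PIA+IL-27 2 lay below both Controls in 8 of 19 inflammatory, 10 of 18 complement and 4 of 15 neutrophil genes. PIA+IL-27 1 did so in 1 gene of each list. For a single library, the matching share of all tested genes was not counted. Groups were fully separated on the lower side in 1 gene of each list (5.26, 5.56 and 6.67%), against 5.91% of all tested genes. On the higher side this was so for 1 inflammatory, 0 complement and 0 neutrophil genes. Of 19 tested inflammatory cytokine and chemokine genes none passed, 16 were below 0 and the median was -0.75. Of 18 complement and Fc receptor genes none passed, 17 were below 0 and the median was -0.74. Of 15 neutrophil and monocyte genes none passed, all 15 were below 0 and the median was -1.90. Control 1 was above Control 2 in all 19, in 17 of the 18 and in all 15. Without Control 1 the medians were 0.65, 0.79 and 1.78, against 0.08 for all genes. With TMM scaling all 3 medians stayed below 0, at -2.10, -1.97 and -3.20.

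Ccl5, a T cell attracting chemokine, had 50 and 0.952 in Control, 271 and 60 with PIA alone, and 7.3 and 0 with PIA+IL-27. Cxcl10, an interferon-induced chemokine, had 39.2 and 2.86 in Control, 238 and 124 with PIA alone, and 7.3 and 7.77 with PIA+IL-27. Both PIA+IL-27 libraries were below both PIA libraries and below Control 1 in both genes. Ccl2, a monocyte attractant, had 33.3 and 2.86 in Control, 113 and 27.3 with PIA alone, and 5.21 and 3.88 with PIA+IL-27. Here the PIA+IL-27 libraries lay just above Control 2.

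C3, the central complement component, had 186 and 18.1 in Control, 460 and 121 with PIA alone, and 62.6 and 10.7 with PIA+IL-27. Cfb, complement factor B, had 239 and 10.5 in Control, 667 and 280 with PIA alone, and 92.8 and 24.3 with PIA+IL-27. Fcgr4, an activating Fc receptor, had 57.8 and 5.71 in Control, 139 and 81.8 with PIA alone, and 16.7 and 8.74 with PIA+IL-27. In these 3 genes the groups overlapped and PIA+IL-27 1 was the higher of its 2 libraries.

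Hp, the hemoglobin-binding acute-phase protein haptoglobin, had 82.3 and 3.81 in Control, 466 and 9.82 with PIA alone, and 6.26 and 2.91 with PIA+IL-27 (adjusted p = 0.415). Retnlg, a resistin-like gene of neutrophils, had 57.8 and 0 in Control, 145 and 1.09 with PIA alone, and 4.17 and 1.94 with PIA+IL-27. Wfdc17, a secreted inhibitor gene of myeloid cells, had 34.3 and 0.952 in Control, 135 and 6.55 with PIA alone, and 3.13 and 0 with PIA+IL-27. Control 1 and PIA 1 carried these genes, while Control 2, PIA 2 and both PIA+IL-27 libraries were under 10 normalized reads. Neutrophil genes summed to 1099 and 173 in Control, 4602 and 356 with PIA alone, and 318 and 166 with PIA+IL-27.

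Reactive astrocyte genes were lower as a list, with 4 of 16 tested genes below both Controls in both PIA+IL-27 libraries (25%, against 5.91%). None passed the test, 13 were below 0, and the median was -0.65 with the deposited scaling, -1.72 with TMM scaling and 0.24 without Control 1. For all genes these medians were 0.55, -0.02 and 0.08. Steap4, a metalloreductase gene, had 99.9 and 40.9 in Control, 446 and 15.3 with PIA alone, and 15.6 and 0 with PIA+IL-27 (log2 fold change -3.16, SE 1.06, adjusted p = 0.399). Serpina3n, a protease inhibitor gene of reactive astrocytes, had 1226 and 638 in Control, 2535 and 200 with PIA alone, and 223 and 460 with PIA+IL-27. Gfap, the astrocyte intermediate filament gene, had 13757 and 5522 in Control, 17945 and 6035 with PIA alone, and 4066 and 4747 with PIA+IL-27. In all 3 the PIA+IL-27 libraries lay below both Controls.

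The remaining reactive astrocyte genes named by the rule overlapped. Lcn2, the iron-siderophore binding lipocalin 2, had 214 and 1.9 in Control, 1496 and 46.9 with PIA alone, and 50.1 and 2.91 with PIA+IL-27. Timp1, an inhibitor of matrix metalloproteinases, had 110 and 11.4 in Control, 239 and 32.7 with PIA alone, and 22.9 and 16.5 with PIA+IL-27. Both were above 0 in their fold change without Control 1, at 3.70 and 0.78.

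Genes of homeostatic microglia had a median of 0.74 over 8 tested genes, against 0.55 for all genes, with none past the test and 2 (25%, against 23.2%) above both Controls in both PIA+IL-27 libraries. The median was 0.27 with TMM scaling, 0.12 without Control 1 and 1.73 without Control 2, against -0.02, 0.08 and 1.36 for all genes. P2ry12, the purinergic receptor of resting microglia, had 14.7 and 232 in Control, 9.61 and 56.7 with PIA alone, and 258 and 184 with PIA+IL-27. P2ry13, its neighbour in the same receptor family, had 42.1 and 141 in Control, 29.8 and 92.7 with PIA alone, and 160 and 144 with PIA+IL-27. Tgfbr1, a TGF-beta receptor gene that microglia need for their resting state, had 202 and 436 in Control, 325 and 212 with PIA alone, and 766 and 472 with PIA+IL-27. For all 3 the PIA+IL-27 libraries lay near Control 2 or above it, and Control 1 near the PIA libraries.

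Some collagen genes of the meninges were below the Control range. Of 15 tested meningeal fibroblast genes none passed, 10 were below 0, and 5 (33.3%, against 5.91%) lay below both Controls in both PIA+IL-27 libraries, Col1a1, Col1a2, Col3a1, Col6a1 and Col6a3. PIA+IL-27 2 by itself was below both Controls in all 15, while PIA+IL-27 1 was below both in 5 and above both in 6. How many of all tested genes lay outside the Control range in a single library was not counted. The list's median of -0.46 was -1.37 with TMM scaling and 0.14 without PIA+IL-27 2. For all genes these medians were 0.55, -0.02 and 0.63. Col1a1 had 3858 and 1461 in Control, 2423 and 2204 with PIA alone, and 1041 and 762 with PIA+IL-27 (log2 fold change -1.56, SE 0.816, adjusted p = 0.835). Col1a2 had 3725 and 3130 in Control, 4128 and 2804 with PIA alone, and 2059 and 1100 with PIA+IL-27. Col3a1 had 2548 and 2322 in Control, 3706 and 1585 with PIA alone, and 1390 and 935 with PIA+IL-27. All 15 list members were lower in PIA+IL-27 2 than in PIA+IL-27 1, and the list's summed values were 14462 and 10604 in Control, 17726 and 14387 with PIA alone, and 9360 and 4453 with PIA+IL-27.

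Mast cell protease genes were low in both treated groups. A list of 6 mast cell genes was put together after their values were seen. Of its 4 tested members none passed and 3 lay below both Controls in both treated groups, as did 1.55% of all tested genes. The list was made from these values, so its share is no test against that of all genes. The remaining tested member, Hdc, overlapped the Controls in PIA+IL-27 with the deposited scaling and lay below both with TMM scaling. Mcpt4, a mast cell chymase, had 17.6 and 10.5 in Control and no reads in any of the other 4 libraries, so PIA+IL-27 was at least 9.32-fold lower as a group (adjusted p = 0.206). Cma1, another chymase gene, had 29.4 and 13.3 in Control, 1.92 and 4.36 with PIA alone, and 3.13 and 0 with PIA+IL-27 (adjusted p = 0.758). Tpsb2, a mast cell tryptase gene, had 25.5 and 11.4 in Control, 2.88 and 1.09 with PIA alone, and 2.09 and 3.88 with PIA+IL-27 (adjusted p = 0.835). All 3 were low in each of the 4 treated libraries, on few reads. Mast cells lie in the meninges and along vessels of the hippocampus and thalamus.

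Other genes that lay below the Controls in both treated groups were spread over functions. Krt8, an epithelial keratin gene, had 30.4 and 69.5 in Control, 24.0 and 7.64 with PIA alone, and 3.13 and 13.6 with PIA+IL-27. Traf1, an adaptor gene of TNF receptor signalling, had 35.3 and 40.0 in Control, 22.1 and 21.8 with PIA alone, and 10.4 and 11.7 with PIA+IL-27, with little scatter within each group. Dlk1, a Notch ligand family gene, had 45.1 and 70.5 in Control, 33.6 and 15.3 with PIA alone, and 8.34 and 23.3 with PIA+IL-27. Crabp1, a retinoic acid binding protein gene, and Tnnt3, a fast skeletal muscle troponin gene, completed the set named by the rule, with adjusted p of 0.835 each.

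Other genes below both Controls had PIA libraries that overlapped the Control range. Padi4, a histone-citrullinating enzyme gene of neutrophils, had 22.5 and 1.9 in Control, 45.2 and 14.2 with PIA alone, and 1.04 and 0 with PIA+IL-27. Tnfsf11, which encodes the cytokine RANKL, had 16.7 and 8.57 in Control, 18.3 and 1.09 with PIA alone, and 0 and 0.971 with PIA+IL-27. Col8a2, a network-forming collagen gene, had 92.1 and 403 in Control, 95.1 and 132 with PIA alone, and 71.9 and 44.7 with PIA+IL-27. Padi4 and Tnfsf11 rested on few reads, and their adjusted p were 0.666 and 0.714.

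Neuronal and chromatin gene lists had medians near that of all genes. Of 18 tested glutamatergic synapse genes none passed, all 18 were above 0 with a median of 0.60 against 0.55, and 7 (38.9%, against 23.2%) lay above both Controls. Of 16 GABA genes 13 were above 0 with a median of 0.55, of 25 ion channel genes 24 with a median of 0.54, and of 18 chromatin genes 17 with a median of 0.61. Above both Controls lay 5 GABA (31.2%), 4 ion channel (16%) and 3 chromatin genes (16.7%), against 23.2% of all tested genes. With TMM scaling the 4 medians were 0.08, 0.07, -0.02 and 0.09 and the lists split between both directions. Without Control 2 they were 1.60, 1.73, 1.37 and 1.65, against 1.36 for all genes. Without Control 1 they were 0.16, -0.01, 0.07 and 0.03, against 0.08 for all genes. Glutamatergic genes summed to 8273 and 23393 in Control, 8749 and 7588 with PIA alone, and 24488 and 23346 with PIA+IL-27, so that Control 1 stood with the PIA libraries and Control 2 with the PIA+IL-27 libraries.

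Nlgn1, a postsynaptic adhesion protein gene, had 341 and 912 in Control, 389 and 244 with PIA alone, and 1211 and 1048 with PIA+IL-27. Gabrb2, a GABA-A receptor subunit gene, had 234 and 983 in Control, 202 and 190 with PIA alone, and 1373 and 1060 with PIA+IL-27. Tet2, which encodes an enzyme that oxidises methylcytosine, had 93.1 and 301 in Control, 150 and 217 with PIA alone, and 523 and 347 with PIA+IL-27. In all 3 the PIA+IL-27 libraries were above both Controls. For Nlgn1 and Gabrb2 Control 1 was nearer to the PIA libraries than Control 2 was, and for Tet2 the PIA libraries lay between the Controls.

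Of 5 further genes 2 lay above both Controls and 3 overlapped. Slc17a6, a vesicular glutamate transporter gene, had 261 and 694 in Control, 329 and 180 with PIA alone, and 791 and 855 with PIA+IL-27. Atrx, a chromatin remodeller gene, had 357 and 1452 in Control, 430 and 312 with PIA alone, and 1954 and 1347 with PIA+IL-27, and there PIA+IL-27 2 lay within the Control range. Scn1a, a voltage-gated sodium channel gene, had 74.4 and 329 in Control, 84.6 and 155 with PIA alone, and 604 and 279 with PIA+IL-27, so its groups overlapped. Kcnt2, a sodium-activated potassium channel gene, overlapped as well, at 41.1 and 174 in Control, 50 and 81.8 with PIA alone, and 445 and 144 with PIA+IL-27. Htr2a, the serotonin 2A receptor gene, came from another list, of monoamine and stress genes. It was above both Controls at low level, with 4.9 and 20 in Control, 5.77 and 9.82 with PIA alone, and 46.9 and 22.3 with PIA+IL-27. Of that list's 11 tested genes none passed and 6 were below 0, with a median of -0.39. In both PIA+IL-27 libraries 2 lay above both Controls (18.2%, against 23.2%) and 2 below both (18.2%, against 5.91%).

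The table held few defining genes of the labelled tissue. Of 24 dentate granule cell markers 9 were listed and of 26 pyramidal cell markers of the hippocampal CA fields 5, and all of these had reads. Dentate markers summed to 1667 and 4633 in Control, 2010 and 904 with PIA alone, and 2583 and 4423 with PIA+IL-27. Markers of the CA fields summed to 3737 and 3828 in Control, 3949 and 3630 with PIA alone, and 7290 and 3942 with PIA+IL-27. Fibcd1, a CA1 marker, was below both Controls in PIA+IL-27, with 1237 and 1717 in Control, 1626 and 506 with PIA alone, and 214 and 1102 with PIA+IL-27.

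Neocortex markers were mixed, with a high sum in PIA+IL-27 1 carried largely by Mef2c. The summed values were 35862 in PIA+IL-27 1 and 7767 to 13787 in the other 5. However, PIA+IL-27 1 was the highest of the 6 libraries in 6 of 15 tested genes and below both Controls in 3. The same counts over all tested genes were not made. None of the 15 passed and 11 were above 0, with a median of 0.84 against 0.55 for all genes. The median was 0.03 without Control 1, 0.18 without PIA+IL-27 1 and 1.65 without PIA+IL-27 2. For all genes these medians were 0.08, 0.39 and 0.63. Mef2c, a transcription factor gene of cortical neurons and microglia, had 2051 and 1695 in Control, 2763 and 5328 with PIA alone, and 21319 and 2126 with PIA+IL-27 (log2 fold change 2.65, SE 0.811, adjusted p = 0.206). PIA+IL-27 2 stood just above Control 1, and the groups overlapped with TMM scaling. Rorb, a nuclear receptor gene of cortical layer 4 neurons, had 30.4 and 125 in Control, 46.1 and 255 with PIA alone, and 802 and 92.2 with PIA+IL-27, so its groups overlapped. Sulf1, a heparan sulfate sulfatase gene, went the other way, with 81.3 and 894 in Control, 213 and 116 with PIA alone, and 181 and 88.4 with PIA+IL-27 (log2 fold change -1.85, and 0.73 without Control 2). The part of cortical tissue in the results of PIA+IL-27 1 was not tested.

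A family of near-identical genes whose deposited annotation names a Takusan domain stood above the Controls, and it was picked out after its values were seen. Takusan proteins were described as regulators of synaptic activity. Of 16 listed genes 13 were tested, none passed, all 13 were above 0 with a median of 1.92, and 8 (61.5%, against 23.2%) lay above both Controls in both PIA+IL-27 libraries. TMM scaling gave a median of 1 with 10 above 0 and 3 separated, and without PIA+IL-27 1 the median was 0.85. Summed values, which avoid the uncertain split of reads between copies, were 977 and 1006 in Control, 1927 and 831 with PIA alone, and 6458 and 1922 with PIA+IL-27. In the sum the Controls were close to each other, PIA 1 was close to PIA+IL-27 2, and PIA+IL-27 1 stood above all.

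Of the copies, Gm3264 had 217 and 169 in Control, 371 and 132 with PIA alone, and 2054 and 344 with PIA+IL-27. Gm3500 had 10.8 and 18.1 in Control, 42.3 and 22.9 with PIA alone, and 271 and 25.2 with PIA+IL-27. Gm3558 had 56.8 and 60.9 in Control, 105 and 52.4 with PIA alone, and 507 and 93.2 with PIA+IL-27. The groups of Gm3264 and Gm3558 overlapped with TMM scaling, and their adjusted p were 0.415 and 0.835.

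Other higher genes named by the rule were at several levels. LOC118568645, an uncharacterised gene, had 167 and 171 in Control, 254 and 1605 with PIA alone, and 1608 and 576 with PIA+IL-27 (adjusted p = 0.374), so that all 4 treated libraries lay above both Controls. LOC118568644 had 71.5 and 119 in Control, 103 and 472 with PIA alone, and 691 and 184 with PIA+IL-27. Gm3383, a predicted gene, had 103 and 135 in Control, 231 and 97.1 with PIA alone, and 1055 and 185 with PIA+IL-27. Gm4767, Lipo2, Ccl28 and Mroh5 were at lower levels. Gm4767, a predicted gene, had 1.96 and 0 in Control, 0 and 6.55 with PIA alone, and 42.8 and 21.4 with PIA+IL-27, with an adjusted p of 0.0885. Ccl28, a mucosal chemokine gene, had 8.82 and 12.4 in Control, 24.0 and 22.9 with PIA alone, and 33.4 and 105 with PIA+IL-27. In Ccl28 all 4 treated libraries were above both Controls. Lipo2, a lipase family gene with close copies, had no reads in Control, 24.0 and 10.9 with PIA alone, and 6.26 and 18.4 with PIA+IL-27, at least 8.53-fold higher as a group (adjusted p = 0.206). Mroh5, a HEAT-repeat gene, had 1.96 and 4.76 in Control, 0 and 9.82 with PIA alone, and 57.3 and 4.85 with PIA+IL-27, with PIA+IL-27 2 at the level of Control 2.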

How the data were processed

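Mouse hippocampal RNA was sequenced in 6 libraries, 2 for each of the 3 groups. The deposited table gave for each library an estimated (expected) read count, a normalized read count (a signal: the read count, rounded up, over 1 factor per library), TPM and FPKM, and for the authors' comparisons log2 fold changes and Q values (adjusted p-values), per the file headers. No aligner, counter, genome build, strand or test of the authors is given in the sources used here. TPM entered only alternatives and the share of each library that was listed, FPKM only the depth estimate from 25 genes, and the authors' log2 and Q value columns only the description of how the table was selected. Every column of per-sample values was matched to a library, with 0 left over.

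Expected counts, of which 11.3 to 13.3% per library were not whole, were rounded to whole numbers, scaled by the deposited factors, filtered with filterByExpr and tested with edgeR 4.0.16 (glmQLFit and glmQLFTest, R 4.3.3) over all 6 libraries without covariates, with Benjamini-Hochberg adjustment over 3216 genes and a threshold of 0.05. The script was tested on simulated data. Alternatives used DESeq2 1.42.0 and limma 3.58.1, other scalings and filters, and each library left out.

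Genes were named by p: up to 15 higher and 15 lower with non-overlapping groups, 8 a side also off the Control range in PIA, and up to 4 per list, of which a subset chosen after the values were seen is printed. The members and lists were chosen with earlier results of these data known. RefSeq entries matched 3702 of 3733 gene identifiers. A few single genes are not reported here.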

Additional observations from a re-analysis of the deposited data

How the results depend on the processing

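The count of 10 genes past the test held within 1.5 times only without the filter on low counts (11 genes), with the robust dispersion estimate (7 genes, an alternative chosen after seeing the data) and without PIA+IL-27 2 (7 genes). It was 0 with TMM and 0 with median-of-ratios scaling, where 115 and 110 genes had an unadjusted p under 0.05, 1 when only the 4 Control and PIA+IL-27 libraries entered the fit, 1 with DESeq2 (1 higher, 0 lower), 2 with limma on log2 TPM plus 1 (0 higher, 2 lower) and 5 with limma on log2 TPM plus 0.1 (0 higher). Leaving out 1 library gave 0 to 7 genes, 0 to 5 higher and 0 to 2 lower. With 0 genes past the test, 109 had an unadjusted p under 0.05 without Control 1 and 1193 without Control 2. With the replicate block, 3 genes passed, 2 higher and 1 lower. The genes that no longer passed with the robust dispersion estimate were Ttr, Entpd4 and Trpa1. The labels give the libraries only a number, and deviations of libraries with the same number correlated at 0.06 (Control with PIA+IL-27), 0.15 (Control with PIA) and -0.26 (PIA with PIA+IL-27), so the numbers were not taken to pair the samples. Genes with non-overlapping groups numbered 487 higher and 497 lower with TMM scaling and 466 lower with median-of-ratios scaling, against 747 and 190. Over 90 named genes and 1329 fold changes recomputed under an alternative, 1205 kept their direction and their side of the threshold, 93 kept the direction but no longer passed, 2 newly passed and 29 changed sign or became 0. With TMM and median-of-ratios scaling these were Cers1 (-0.12 and -0.11), Ebi3 (-0.72 and -0.69) and B2m (-0.30 and -0.27). The others turned when 1 library was left out, and brackets give the range of the log2 fold change over the 6 libraries left out in turn. The direction turned without Control 2 for Ttr (-12.17 to 2.06), Kcne2 (-5.29 to 5.61), Sulf1 (-2.73 to 0.73) and Ebi3 (-0.11 to 1.05), Ebi3 also without PIA+IL-27 1. It turned, or the difference was 0, without PIA+IL-27 1 for Ddx3y (0.00 to 11.89), Kdm5d (0.00 to 10.86) and Eif2s3y (-0.24 to 6.69). The same was so without PIA+IL-27 2 for Entpd4 (0.00 to 8.71), Usp18 (-1.38 to 5.06) and Irgm1 (-0.15 to 2.18). Without Control 1 it turned for Ccl5 (-7.69 to 1.79), Ccl2 (-2.84 to 0.65), Cxcl10 (-2.36 to 1.36), C3 (-3.24 to 1.01), Cfb (-2.36 to 2.47), Fcgr4 (-2.18 to 1.13), P2ry12 (-0.07 to 3.90), Hp (-4.14 to 0.25), Retnlg (-4.19 to 4.66), Wfdc17 (-7.16 to 0.62), Lcn2 (-5.15 to 3.70) and Timp1 (-2.47 to 0.78). Where the difference was 0, Ddx3y, Kdm5d and Entpd4 had no reads in either group. For the other changes of direction the cause was not tested. Depth limits genes under about 10 reads, and 2 libraries a group leave each group's spread resting on 1 difference.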
